A study of Mus musculus with 3 samples.

Results

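The kainate and metabotropic glutamate receptor genes were examined in cultured mouse cortical neurons deprived of oxygen, without and with thyroid hormone. Members were taken by gene symbol from the deposited table of normalised read counts. All 9 were found among its 24054 genes: Grik1, Grik2, Grik3 and Grik5 for kainate receptor subunits, and Grm2, Grm3, Grm5, Grm7 and Grm8 for metabotropic receptors. All 9 averaged at least 1 CPM (read counts scaled to library size) and were compared with the other 12683 genes that did. The neurons came from the brain of embryonic day 17 C57BL/6 mice and were cultured for 7 days. The control culture stayed at 21% oxygen. The hypoxia culture spent 7 hours at 0.2% oxygen without T3, and the culture of hypoxia with T3 spent 7 hours at 0.2% oxygen with T3 (triiodothyronine, the active form of thyroid hormone) at 5 nM. Each group is 1 library, and the labels do not say whether neurons of several embryos or litters were pooled. A culture with T3 at 21% oxygen was not analysed here.

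Kainate receptors are glutamate-gated cation channels built from 4 subunits of the Grik family. Grik1, Grik2 and Grik3 encode GluK1 to GluK3, which can form channels on their own, and Grik4 and Grik5 encode GluK4 and GluK5, which bind kainate tightly but need a partner from the first set. Metabotropic receptors instead signal through G proteins. Group I, which includes the receptor encoded by Grm5, couples to Gq and phospholipase C and sits mostly around the postsynaptic density. Group II (Grm2 and Grm3) and group III (Grm4, Grm6, Grm7 and Grm8) couple to Gi/o, and many of these receptors restrain transmitter release from the presynaptic terminal.

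The libraries held 17118865 to 22533574 reads. With no replicate in any group, no difference below was tested against variation between cultures. The 95% intervals are exact Clopper-Pearson intervals on how the reads of a gene divide between 2 libraries, and they cover counting error only. A difference is given as a ratio of CPM, and as a log2 ratio after adding 1 CPM to each value, and a gene was counted as different at 2-fold or more on that log2 scale. Scaling each library to the same sum moved the median log2 ratio of hypoxia over control from 0.05 to -0.10 over all genes compared, so the share of genes with a lower ratio than a member, which a common shift of all genes leaves as it is, is given beside the larger differences. The 6 general neuron markers, none at 0, summed to 5455 CPM in control, 5255 under hypoxia and 5160 when T3 was added. Map2 among them was at 1429, 1555 and 1588 CPM, while Tubb3, which encodes a neuronal tubulin, was at 1771, 873 and 739 CPM, 2.03-fold lower in hypoxia than in control (1.99 to 2.07). Wherever 3 values are given in a row, they follow this order of the libraries. The 6 microglial markers together stayed between 1.55 and 1.79 CPM. Marker lists moved with oxygen as well. The 9 oligodendrocyte lineage markers, none at 0, summed to 347 CPM in control and to 202 and 204 CPM in the hypoxic libraries. The 6 excitatory neuron markers, none at 0, summed to 906, 691 and 671 CPM, and the 7 inhibitory neuron markers, none at 0, to 343, 466 and 443 CPM. The 9 astrocyte markers, none at 0, summed to 553, 585 and 597 CPM. These sums do not stand for each gene. By counting interval, hypoxia over control, 4 of the 6 general neuron markers were higher and 1, Tubb3, was lower (median log2 ratio 0.21). Of the 6 excitatory markers 2 were higher and 3 lower. Of 8 astrocyte markers compared, 4 were higher and 1 lower. Among the 7 inhibitory markers 5 were higher and none lower, and of the 9 oligodendrocyte lineage markers 6 were lower and none higher. Of all genes compared, 37.8% were higher and 30% lower. The part of these marker shifts in the differences between receptor genes was not tested. In RNA from whole cultures, fewer cells of a type and less RNA per cell cannot be told apart.

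**Figure D1:**
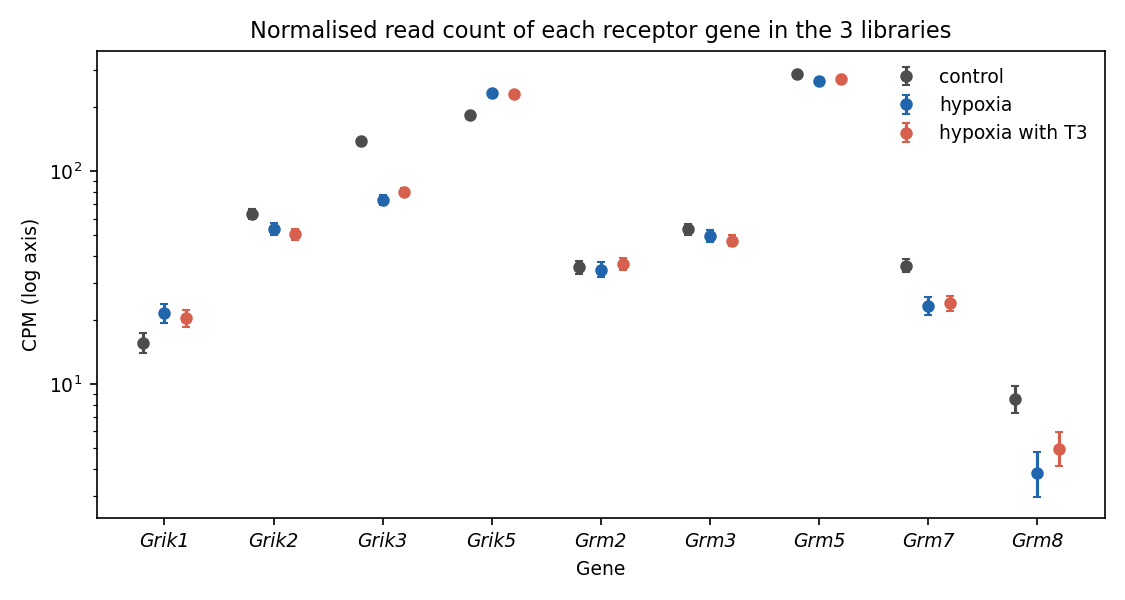
Normalised read count (CPM, log axis) of the 9 receptor genes in control, hypoxia and hypoxia with T3, 1 library each. Bars are exact 95% Poisson intervals of the reads. Grik3, Grm7 and Grm8 were highest in control, as were Grik2, Grm3 and Grm5 by smaller ratios. Grik1 and Grik5 were lowest in control, and the intervals of the hypoxic libraries overlapped for Grm8, where they lay farthest apart.

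Levels of different genes were compared as CPM per kilobase of exonic length, the union of annotated exons. In control the order was Grik5, Grm5, Grm3, Grik3, Grm2, Grm7, Grik2, Grik1 and Grm8. Grik5 was at 35.4 CPM per kb, Grm5 at 27.9, Grm3 at 17.5, Grik3 at 15.4 and Grm8 at 0.862, and the counting intervals of neighbours in that order did not overlap. The partner subunit GluK5 and the group I receptor mGluR5 thus had the most abundant transcripts of the 9 per length, and the group III receptor mGluR8 the least abundant. In hypoxia Grik3 kept the fourth place but at 8.19 CPM per kb (7.76 to 8.64), close above Grm2 at 7.06 (6.52 to 7.64). Grik2 at 4.04 and Grm7 at 3.96 CPM per kb did not differ beyond their intervals there, nor with T3, where they were at 3.81 and 4.08. Where the length of the longest transcript was used instead, Grm7 stood above Grm2 in control, at 8.58 against 7.51 CPM per kb.

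The kainate subunits did not move together under hypoxia. Grik3 was lower and Grik1 and Grik5 were higher, each beyond counting error, and Grik2 was slightly lower. With libraries scaled to equal sums the log2 ratios were 0.28 for Grik1 and 0.17 for Grik5, against 0.44 and 0.35 as deposited. For Grik2 and Grik3 they were -0.40 and -1.08, against -0.23 and -0.91. Grik3, the GluK3 subunit (mm10 chromosome 4, positions 125490700 to 125714173 on the plus strand), had 139 CPM in control, 73.5 under hypoxia and 80.1 when T3 was added. The control library was the high one, and the hypoxic libraries lay close to each other. Hypoxia over control, Grik3 was 1.88-fold lower (1.77 to 2.01), with a log2 ratio of -0.91, and 6.29% of all genes compared had a lower ratio. With T3 it was 1.09-fold higher than in hypoxia alone (1.01 to 1.17), the only one of the 9 genes whose interval for that comparison left out 1, and still 1.73-fold below control (1.63 to 1.83).

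Grik5, the GluK5 subunit (chromosome 7, 25009849 to 25072346, minus strand), had 183, 233 and 232 CPM. It was low in control and nearly equal in the hypoxic libraries. It was 1.27-fold higher in hypoxia than in control (1.22 to 1.33), with 75.8% of genes below it. Between the hypoxic libraries its ratio was 0.994 (0.955 to 1.03). Grik1, the GluK1 subunit (chromosome 16, 87895900 to 88290265, minus strand), followed the same order at a lower level, with 15.6, 21.5 and 20.4 CPM. Hypoxia over control, Grik1 was 1.38-fold higher (1.19 to 1.61), the highest ratio of the 9, and 83.3% of genes lay below it. With T3 its ratio to hypoxia was 0.946 (0.826 to 1.08), which this depth cannot tell from no difference. Grik2, the GluK2 subunit (chromosome 10, 49094833 to 49788766, minus strand), was at 62.8, 53.5 and 50.5 CPM. It was 1.17-fold lower in hypoxia (1.08 to 1.28) and 1.24-fold lower in hypoxia with T3 (1.15 to 1.34), both against control. The fifth gene of the family, Grik4, is not among the 9 and was at 9.18, 7.24 and 7.82 CPM, 1.27-fold lower in hypoxia (1.01 to 1.59).

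The promoters of Grik3 and Grik5 are shown because these are the most abundant kainate subunits and their ratios lay on opposite sides of 1. RefSeq windows (GRCm38.p6, the assembly of mm10) were held for 7 of the 9 members, and not for Grik1 and Grm5. The windows run 5′ to 3′ on the strand of the gene and end at the base before the annotated start. Capitals mark the core letters bound by hypoxia-inducible factor, ACGTG or GCGTG, searched on both strands (CACGT and CACGC on the other strand).
Grik3, chr4:125490446-125490695, plus strand: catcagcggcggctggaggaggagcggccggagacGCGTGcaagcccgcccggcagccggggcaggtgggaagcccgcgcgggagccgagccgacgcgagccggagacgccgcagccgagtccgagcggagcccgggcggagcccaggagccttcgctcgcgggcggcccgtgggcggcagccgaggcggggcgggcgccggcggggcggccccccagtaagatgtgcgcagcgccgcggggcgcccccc
Grik5, chr7:25072370-25072619, minus strand: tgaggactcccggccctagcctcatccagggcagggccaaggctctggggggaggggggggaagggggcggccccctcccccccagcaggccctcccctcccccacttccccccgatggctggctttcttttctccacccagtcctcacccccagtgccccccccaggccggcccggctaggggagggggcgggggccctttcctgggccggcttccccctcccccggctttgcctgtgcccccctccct
The Grik3 window held 1 such core, GCGTG, beginning 215 bases before the start, and the Grik5 window held none. Of 32851 windows of this length in the table, 38.6% held at least 1, so that a match is common. Both windows were rich in G and C, at 82% for Grik3 and 75.2% for Grik5 against a median of 52.4%, but they differed in CpG dinucleotides, with 42 in Grik3 and 8 in Grik5. The thyroid hormone receptor half-site AGGTCA, searched on both strands and found in 14.02% of windows, and the cAMP response element TGACGTCA, found in 1.55%, were in none of the windows of the 7 genes.

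**Figure D2:**
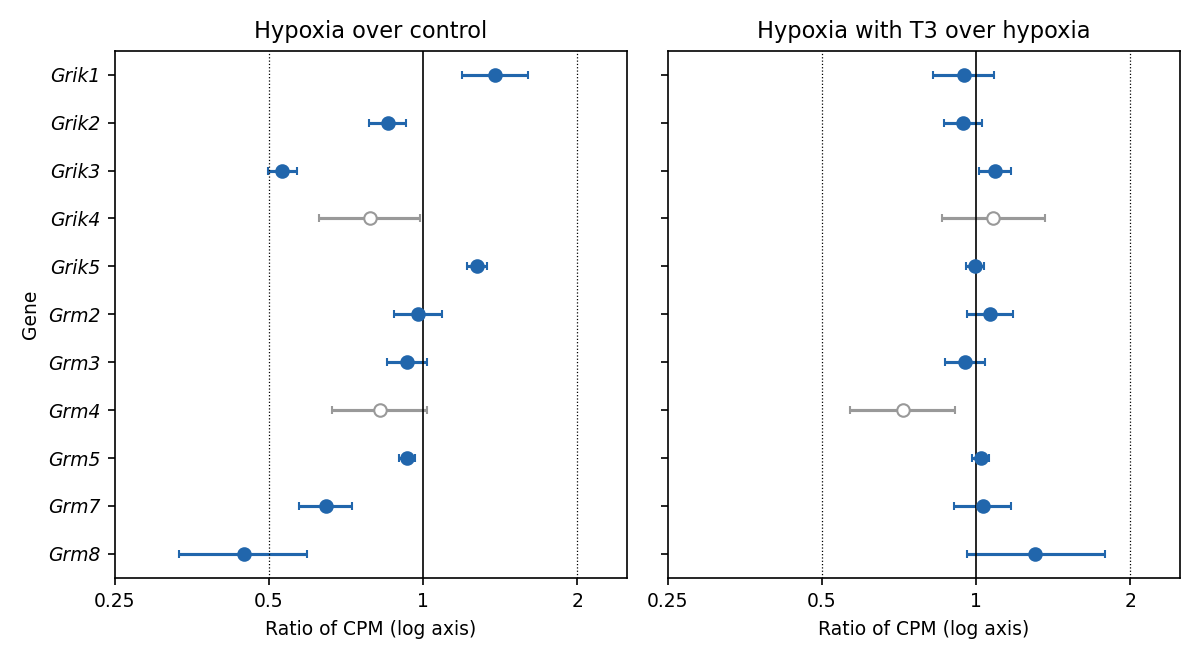
Ratio of CPM (log axis) for the 2 comparisons that change 1 factor, hypoxia over control and hypoxia with T3 over hypoxia. Filled points are the 9 receptor genes, open points are Grik4 and Grm4 of the same families, bars are exact 95% counting intervals, and dotted lines mark 2-fold. Hypoxia spread the ratios from 0.447 for Grm8 to 1.38 for Grik1, while with T3 most intervals crossed 1.

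Of the 5 metabotropic members, 3 were lower under hypoxia beyond counting error and none was higher, beside 30% and 37.8% of all genes compared. The lower ones were Grm7 and Grm8 of group III, each by over 1.5-fold, and Grm5 of group I, by 1.08-fold. On the deposited CPM, Grm2 and Grm3 of group II were within 1.08-fold of control. Grm5, which encodes mGluR5 (chromosome 7, 87584168 to 88134907, plus strand), had 286, 266 and 271 CPM. It was the most deeply counted of the 9, with 4812 to 6384 reads, and its levels were close in all libraries. Hypoxia over control, it was 1.08-fold lower (1.04 to 1.12), and with T3 over hypoxia its ratio was 1.02 (0.984 to 1.06). With libraries scaled to equal sums its log2 ratio of hypoxia over control was -0.28, against -0.10 as deposited.

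In group II, Grm2, which encodes the mainly presynaptic mGluR2 (chromosome 9, 106643095 to 106656082, minus strand), was at 35.4, 34.6 and 36.8 CPM. Its ratio was 0.978 in hypoxia over control (0.878 to 1.09) and 1.07 with T3 over hypoxia (0.960 to 1.18). In hypoxia with T3 over control its log2 ratio was 0.06 as deposited and -0.13 with libraries scaled to equal sums. Grm3, which encodes mGluR3, a receptor of neurons and astrocytes (chromosome 5, 9485541 to 9725170, minus strand), was at 53.3, 49.6 and 47.2 CPM. Its ratio was 0.930 in hypoxia over control (0.851 to 1.02), 0.952 with T3 over hypoxia (0.871 to 1.04) and 0.885 in hypoxia with T3 over control (0.814 to 0.962), the last beyond counting error. For both group II genes the difference between hypoxia and control, as deposited, was not detectable at this depth. That reading depends on scaling. With libraries scaled to equal sums their log2 ratios were -0.20 for Grm2 and -0.27 for Grm3, against -0.03 and -0.10 as deposited.

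In group III, Grm7, which encodes mGluR7, a receptor of the presynaptic active zone (chromosome 6, 110645581 to 111567230, plus strand), had 36.1, 23.3 and 24.0 CPM. Control was the high library and the hypoxic ones were alike. Hypoxia over control, Grm7 was 1.55-fold lower (1.37 to 1.75), with 13.1% of genes below it, and with T3 over hypoxia its ratio was 1.03 (0.907 to 1.17). Grm8, which encodes the presynaptic mGluR8 (chromosome 6, 27275119 to 28135178, minus strand), had 184, 69 and 117 reads, or 8.53, 3.81 and 4.98 CPM. It was again highest in control, with the library of hypoxia with T3 between the others. Grm8 was 2.24-fold lower in hypoxia than in control (1.69 to 3.0), the lowest ratio of the 9, and 5.09% of genes lay below it. After 1 CPM was added its log2 ratio was -0.99, just short of the 2-fold rule. With T3 over hypoxia its ratio was 1.31 (0.961 to 1.78), not detectable at this depth, although 95.4% of genes had a lower log2 ratio in that comparison. Of the other group III genes, Grm4 was at 10.01, 8.23 and 5.91 CPM and 1.39-fold lower with T3 than in hypoxia (1.10 to 1.77). Grm6, known from retinal bipolar cells, had 0, 5 and 4 reads, and the limit used for 0 reads, 3 reads, stands at 0.139 CPM in control.

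The promoters of Grm7 and Grm8 are shown because these 2 genes were lower together. The Grm8 window is that of the farthest upstream of 3 RefSeq starts, without the 32 bases next to the start that GENCODE annotates as exon. The Grm7 window is that of the upstream one of 2 starts, and capitals have the same meaning as above.
Grm7, chr6:110645262-110645511, plus strand: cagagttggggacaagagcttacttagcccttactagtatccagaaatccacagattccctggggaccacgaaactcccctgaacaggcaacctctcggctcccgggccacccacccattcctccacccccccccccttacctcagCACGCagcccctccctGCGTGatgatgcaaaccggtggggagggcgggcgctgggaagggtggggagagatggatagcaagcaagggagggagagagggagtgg
Grm8, chr6:28135179-28135396, minus strand: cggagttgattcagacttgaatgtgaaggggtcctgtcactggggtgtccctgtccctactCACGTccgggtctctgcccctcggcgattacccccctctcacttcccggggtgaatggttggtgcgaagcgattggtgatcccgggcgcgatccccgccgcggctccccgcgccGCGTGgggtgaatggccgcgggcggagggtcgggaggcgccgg
Each window held 2 cores. In Grm7 they began 104 bases (CACGC) and 88 bases (GCGTG) before the start, and in Grm8 189 bases (CACGT) and 75 bases (GCGTG) before it. The windows at the other 2 starts of Grm8 held none. Of the other members, the Grik2 window held 1 core and those of Grm2 and Grm3 held none, and a match describes these letters only, not binding.

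Counted by the rule, none of the 9 genes was at least 2-fold higher or lower in hypoxia than in control, where 1.99% of all genes compared were higher and 4.92% were lower. At 1.5-fold, 3 of the 9 were lower (Grik3, Grm7 and Grm8) and none higher, beside 13.8% and 8.46% of all genes. With libraries scaled to equal sums the log2 ratios of Grik3 and Grm8 were -1.08 and -1.14, so that 2 of the 9 passed the 2-fold rule, and the shares of all genes became 1.48% higher and 7.48% lower. By counting interval alone 5 were lower and 2 were higher, where 30% and 37.8% of all genes were. The median log2 ratio of the 9 was -0.10, against 0.05 for all genes compared. In hypoxia with T3 over hypoxia, which shares the hypoxia library with the first comparison, none of the 9 reached 2-fold or 1.5-fold in either direction. Among all genes, 0.126% were 2-fold higher and 0.063% lower, and 0.717% and 0.276% were so at 1.5-fold. Grik3 alone had an interval wholly above 1 and none of the 9 had one wholly below it, beside 11.1% and 6.71% of all genes. In hypoxia with T3 over control, which shares the control library with the first comparison, none reached 2-fold, with 2.06% of all genes higher and 4.59% lower (1.54% and 7.08% with equal sums). At 1.5-fold 2 of the 9 were lower, Grik3 and Grm8, and none was higher, beside 13.1% and 8.73% of all genes. By counting interval 6 were lower and 2 higher, beside 29.6% and 40% of all genes. Grm7 was 1.503-fold lower on CPM (1.35 to 1.68) but at -0.57 on the log2 scale with 1 CPM added, just short of 1.5-fold.

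**Figure D3:**
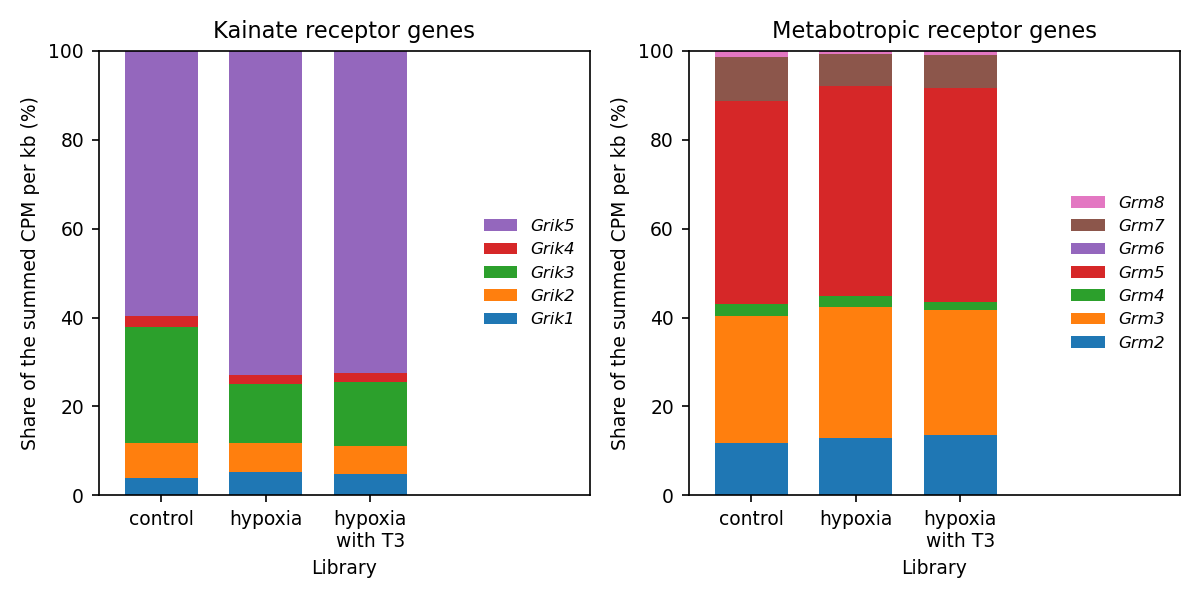
Share of each gene in the summed CPM per kb of exonic length (%) of the 5 kainate and of the 7 metabotropic genes described here, stacked for control, hypoxia and hypoxia with T3, 1 library each. In the kainate family the Grik5 share was 59.6% in control and 73.0% in hypoxia while that of Grik3 was 26.0% and 13.3%. The metabotropic genes were led by Grm5 and Grm3 in all 3 libraries.

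Shares within a family do not depend on how libraries are scaled, and they showed the divergence of the kainate subunits directly. As scaled by the authors, the summed level of the 5 kainate genes was 59.5, 61.8 and 61.9 CPM per kb. Within it Grik5 made up 59.6%, 73.0% and 72.4%. Grik3 made up 26.0%, 13.3% and 14.4%, and Grik1 3.90%, 5.19% and 4.89%. Grik2 made up 7.97%, 6.54% and 6.16%. Per length of the longest transcript the shares of Grik5 were 61.7%, 73.2% and 72.9%, and those of Grik3 21.2%, 10.5% and 11.4%. The summed level of the 7 metabotropic genes described here was 61.3, 55.04 and 55.1 CPM per kb. Of that sum Grm5 made up 45.5%, 47.1% and 48.1% and Grm3 28.5%, 29.6% and 28.1%. Grm2, of group II, made up 11.8%, 12.8% and 13.7%. Grm7 made up 10.01%, 7.19% and 7.41%, and Grm8 1.41%, 0.700% and 0.912%. Both libraries at low oxygen had nearly the same makeup in each set.

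**Figure D4:**
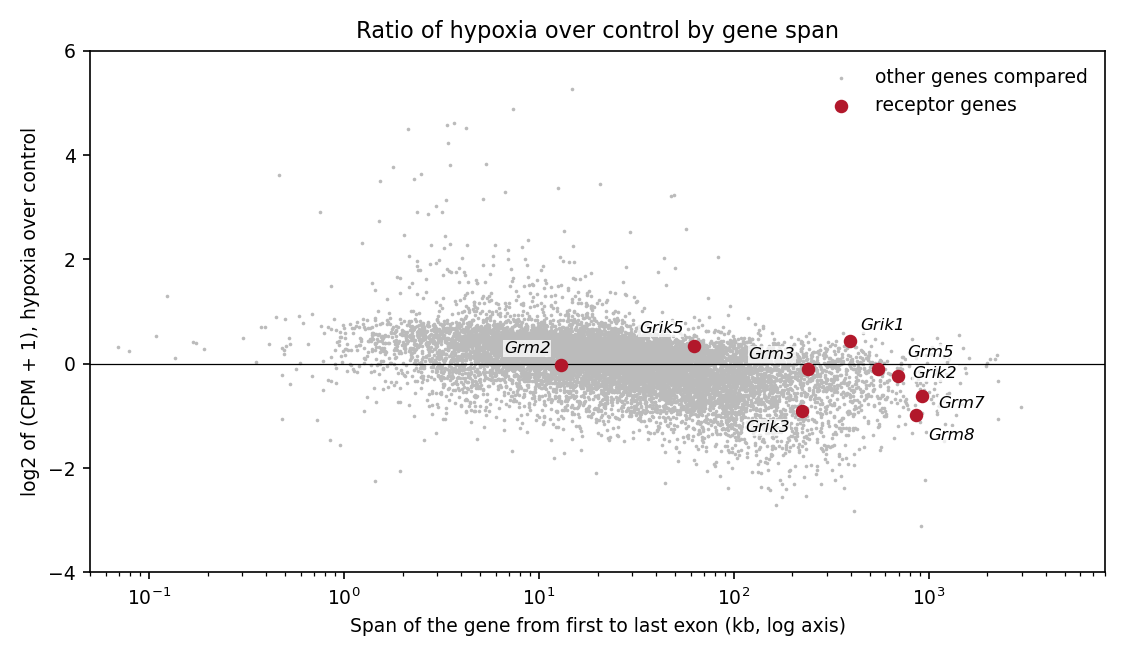
Log2 ratio of hypoxia over control (1 CPM added) against the span of the gene in kb (log axis) for 12121 genes, with the 9 receptor genes in red. The cloud tilts down to the right. Grik1 lies near the top of genes of its span, and Grik3, Grm7 and Grm8 in the lower part of the cloud.

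Most of the 9 are very long genes, and in these libraries long genes had lower ratios of hypoxia over control. The median log2 ratio was 0.24 for genes spanning under 30 kb and -0.12 for 30 to 100 kb. It was -0.36 for 100 to 300 kb and -0.37 for 300 kb or more. Grm7 spans 922 kb, Grm8 860 kb, Grik2 694 kb, Grm5 551 kb and Grik1 394 kb, while Grm3 spans 240 kb, Grik3 223 kb, Grik5 62.5 kb and Grm2 13.0 kb. Within its own span class Grik1 stood high, with 98.3% of the 484 genes of 300 kb or more below it. Grik5 also stood high, with 90.5% of the 3519 genes of 30 to 100 kb below it. Grm8 and Grm7 had 16.3% and 33.9% of the genes of 300 kb or more below them, and Grik3 21.4% of the 1473 genes of 100 to 300 kb. Grm5, Grik2 and Grm3, with log2 ratios slightly below 0, stood above the median of their classes, with 67.8%, 59.5% and 68.8% of genes below them. Grm2, the only short gene of the 9, had 25.7% of the 6645 genes under 30 kb below it. Grm2 was thus below the median of its class and Grm5 above that of its own, and both lay between the quartiles. On the deposited CPM both were within 1.08-fold of control. The part of gene span in these ratios was not tested. With T3 over hypoxia the medians of the 4 classes lay between -0.0012 and 0.02.

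**Figure D5:**
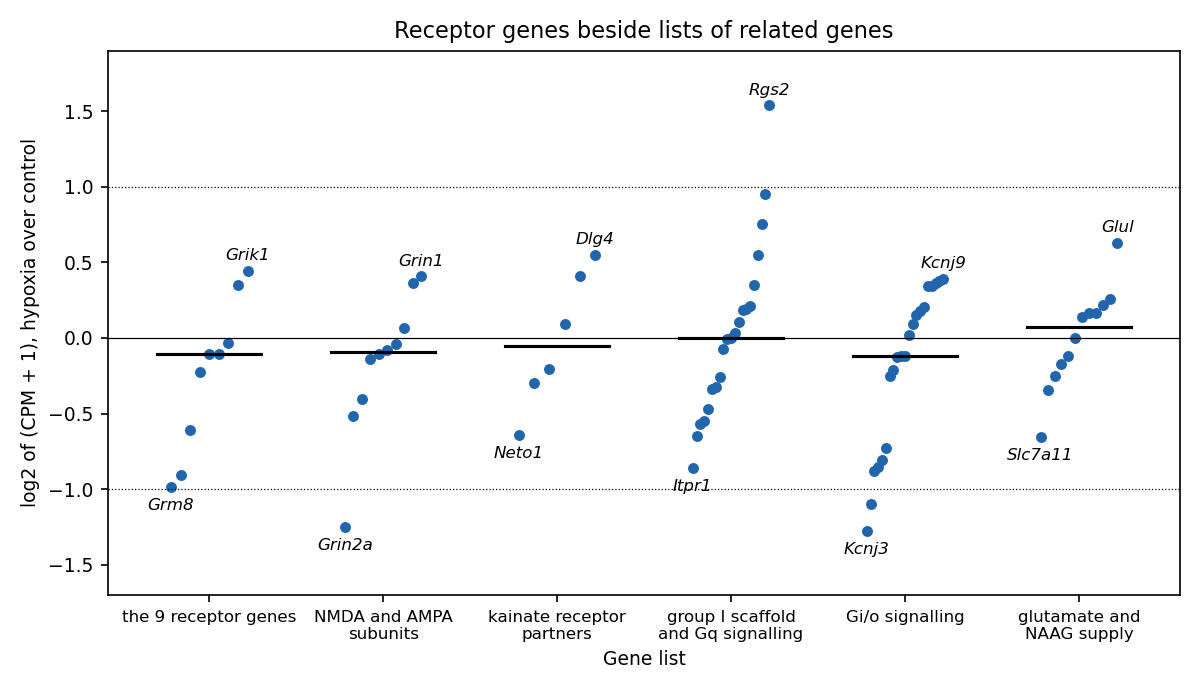
Log2 ratio of hypoxia over control (1 CPM added) for each gene compared, by list. Points are genes in rank order, thick bars are list medians, dotted lines mark 2-fold, and the highest and lowest gene of each list are named. The list medians lay between -0.12 and 0.07, and each list held genes on both sides of 0.

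Genes around these receptors were also divided. Of 6 kainate receptor partners none was at 2-fold (median log2 ratio -0.06), beside 1.99% of all genes higher and 4.92% lower. Neto1 and Neto2, auxiliary subunits that slow the gating of kainate receptors, were lower in hypoxia than in control, as was the scaffold gene Grip1, while Dlg4 and Pick1 were higher and Klhl17 did not differ beyond its interval. Neto1 was at 32.8, 20.7 and 23.7 CPM, 1.59-fold lower in hypoxia (1.40 to 1.80) and 1.15-fold higher with T3 over hypoxia (1.01 to 1.31). Neto2 was at 259, 210 and 231 CPM, 1.23-fold lower in hypoxia (1.18 to 1.29) and 1.10-fold higher with T3 over hypoxia (1.06 to 1.15). Both thus had the order of Grik3, with control highest and hypoxia lowest. Dlg4, the postsynaptic scaffold PSD-95, was at 359, 526 and 524 CPM, and Pick1, a PDZ protein that binds glutamate receptors, at 34.2, 45.8 and 45.9 CPM. Grip1, a PDZ scaffold of glutamate receptors, was at 57.7, 49.98 and 48.8 CPM, 1.16-fold lower in hypoxia (1.06 to 1.26).

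Of 21 group I scaffold and Gq signalling genes, 1 was at least 2-fold higher and none lower, beside 1.99% and 4.92% of all genes. That gene was Rgs2, a GTPase activator that curbs Gq, at 39.7, 117 and 81.6 CPM, 2.95-fold higher in hypoxia (2.73 to 3.20) and 1.44-fold lower with T3 than in hypoxia (1.35 to 1.53). Rgs4, a related regulator, was at 140, 272 and 207 CPM. Itpr1, the IP3 receptor that releases calcium downstream of group I, was at 92.6, 50.5 and 73.4 CPM. It was 1.83-fold lower in hypoxia (1.70 to 1.99) and 1.45-fold higher with T3 than without (1.34 to 1.58). Rgs2, Rgs4 and Itpr1 therefore lay nearer to control with T3 than without, whereas Grm5 itself stayed close to control in both. Those 3 genes were named for large ratios, and the single hypoxia library enters both ratios. An error in that library alone would move the 2 ratios in opposite directions. Whether T3 brought these genes nearer to control was not tested. Of 21 genes for Gi/o signalling, 2 were lower by the 2-fold rule and none higher (median -0.12), beside 4.92% and 1.99% of all genes. These were Kcnj3, a subunit of G protein-gated potassium channels, at 29.2, 11.5 and 9.95 CPM, and Adcy3, an adenylyl cyclase, at 39.1, 17.7 and 18.6 CPM. Adcy8 and Adcy9 were 1.87-fold (1.60 to 2.19) and 1.88-fold (1.66 to 2.15) lower in hypoxia. Adcy8, at 24.8, 13.3 and 10.5 CPM, was lower again with T3, by 1.26-fold over hypoxia (1.05 to 1.51), and then 2.35-fold below control (2.02 to 2.74). Elfn1, a postsynaptic adhesion protein that binds group III receptors across the synapse, was at 13.8, 7.95 and 11.9 CPM, 1.74-fold lower in hypoxia (1.42 to 2.13) and 1.497-fold higher with T3 over hypoxia (1.22 to 1.84).

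Of 14 genes that supply or clear glutamate and the mGluR3 agonist NAAG, 12 were compared and none was at 2-fold (median 0.07). Of all genes, 1.99% were 2-fold higher and 4.92% lower. By counting interval 6 of the 12 were higher in hypoxia than in control and 3 lower, beside 37.8% and 30% of all genes. Glul, the astrocytic glutamine synthetase, was at 184, 285 and 312 CPM, 1.55-fold higher in hypoxia (1.49 to 1.62). Slc1a2, the glial glutamate transporter GLT-1, was at 177, 140 and 169 CPM. Slc7a11, the cystine and glutamate exchanger, was at 5.01, 2.82 and 2.93 CPM. Among 10 NMDA and AMPA subunits compared of 11, 1 was at least 2-fold lower and none higher, beside 4.92% and 1.99% of all genes. Their median was -0.09 beside -0.10 for the 9 receptor genes, and whether the medians differ was not tested. The subunit at least 2-fold lower was Grin2a, an NMDA receptor subunit that increases with maturation, at 10.4, 3.81 and 4.34 CPM. Grin2b, its juvenile counterpart, was 1.43-fold lower (1.36 to 1.51), and Grin1, the obligatory NMDA subunit, was 1.33-fold higher (1.28 to 1.38). With T3 over hypoxia no gene of these lists was at 2-fold, beside 0.126% of all genes higher and 0.063% lower. By counting interval 7 of the 12 glutamate and NAAG supply genes were higher in that comparison and none lower. Of all genes compared, 11.1% were higher and 6.71% lower.

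Likeness of pattern was measured as the distance between genes over 2 log2 ratios, hypoxia over control and hypoxia with T3 over hypoxia, which rest on 3 libraries. Among the 9985 genes averaging 5 CPM or more, Kctd6, Aarsd1 and Atp6v1g2 were nearest to Grik1. As many as 751 genes lay within 0.1 of Grik1, so that its pattern was a common one. Nearest to Grm8 were Qsox2, Usp49 and Nav2, and 31 genes lay within 0.1 of it. Nav2, for example, was at 151, 74.5 and 91.2 CPM.

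In the authors' deposited table for hypoxia against control, the fold of Grik3 was -1.97, that of Grm7 -1.62 and that of Grm8 -2.33. A negative value means that the gene was lower, by that factor. The other folds were 1.33 for Grik1, 1.22 for Grik5, -1.22 for Grik2, -1.07 for Grm2, and -1.12 for Grm3 and for Grm5. The false discovery rate in the authors' deposited table was 0.859 for Grm8 and 0.999 for the other 8 genes, while 85 of all 13152 genes were below 0.05. In the authors' deposited table for hypoxia with T3 against control it was 1 for all 9 genes. The test behind these values is not given in the sources used here.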

How the data were processed

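Strand-specific RNA libraries (KAPA kit, per the labels' protocols) of 3 cultures, 1 in each group, were analysed. Tools named in the submitters' processing notes, without roles, are RSEM 1.2.15, Bowtie2 2.1.0 and bcl2fastq 2.17, with the build mm10. The authors deposited a table of CPM, which the file name calls TMM-normalised (trimmed mean of M-values). In it 100% of values were whole multiples, within 0.01, of the value of 1 read, which gave back read totals of 18081904 (control), 17118865 (hypoxia) and 22533574 (hypoxia with T3). The authors also deposited 2 comparison tables holding, per the file headers, a signed fold (treated as a score), p-value and FDR columns, and a signal column per library that was not used.

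Groups came from the treatment labels. Ratios used CPM, log2 ratios used CPM plus 1, and 12692 genes averaging 1 CPM or more were compared. With 1 library in each group no count test across replicates was possible. The procedure was tested on simulated data with counting error only, so that test does not cover variation between cultures or errors of scaling. Lengths and coordinates came from GENCODE M21 (GRCm38), matched by symbol for 95.5% of genes compared and all 9 members. At most 1.05% of the 31-base words of a member occurred in another gene. An antisense gene covers 9.60% of the exonic bases of Grm2 and another 2.21% of those of Grm7, and whether counting used strand is not given in the sources used here.

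The 9 members and the gene lists were chosen with earlier results of these data known. All members and other genes of their families are named (1 of these is not reported here), with up to 4 genes of each list by ratio of hypoxia over control and 2 by ratio with T3, as far as they are described, and the 3 genes nearest in pattern to the members with the highest and lowest ratio. Alternatives were other added values, other scalings, no filter, a 1.5-fold rule, the authors' folds and another length. Calculations ran in Python 3.11.15 (scipy 1.17.1, pandas 2.3.3, numpy 2.4.6), with figures from matplotlib 3.10.9.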

Additional observations from a re-analysis of the deposited data

How the results depend on the processing

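No paired analysis was possible because each group has 1 library, and for the same reason no library could be left out and no count test was run. Over 108 recalculated log2 ratios of the 9 genes none of those with an interval off 1 changed sign. Of the 108, 93 moved by no more than the log2 distance from the middle of their counting interval to its end, and 15 by more. With libraries scaled to equal sums the median of the 9 was -0.28 for hypoxia over control and -0.36 for hypoxia with T3 over control, 2 members were at least 2-fold lower in hypoxia (Grik3 and Grm8), and 7.48% and 7.08% of all genes were at least 2-fold lower than control in the 2 comparisons. With 0.1 CPM added, 1 member, Grm8, was 2-fold lower in hypoxia than in control. In that comparison 4.92% of all genes were lower with 1 CPM added. That share is at another added value than the count of Grm8, so the 2 cannot be set against each other. For the other comparison, T3 over hypoxia, 0.347% of all genes were higher and 0.142% lower with 0.1 CPM added. With 1 CPM added those shares were 0.126% and 0.063%. With no filter the shares of all genes that were higher and lower were 1.07% and 2.64% for hypoxia and 1.11% and 2.44% for hypoxia with T3, both over control. At 1.5-fold the members lower were 3 in hypoxia and 2 in hypoxia with T3. The shares of all genes higher and lower were then 8.46% and 13.8% for hypoxia over control, 0.717% and 0.276% with T3 over hypoxia, and 8.73% and 13.1% for hypoxia with T3 over control. The order of levels kept 7, 6 and 7 of the 9 ranks in control, hypoxia and hypoxia with T3 when the longest transcript gave the length. More genes tested and a lower threshold account by construction for the shares with no filter and at 1.5-fold, and for the other values the cause was not tested. Depth limits Grm8 most, with 69 reads in hypoxia.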
